A study of Arabidopsis with 24 samples.

Results

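Seedlings of dvl1-1D, a line that overexpresses the peptide gene RTFL18, were compared with wild-type Col-0 seedlings in low R:FR, that is, light with a low ratio of red to far-red as in the shade of other plants. The members of this comparison were all genes with a mean FPKM (fragment counts scaled to transcript length and library size) of at least 1 over the 6 libraries of these groups, 19288 of the 32833 genes with deposited values. Of the genes left out, 5929 had lower values and 7616 were listed at 0 in all 6 libraries. The lowest mean inside the limit was 1.00 and the highest outside it was 0.998 FPKM. The limit was reached through the dvl1-1D libraries alone by 237 genes and through the Col-0 libraries alone by another 237. RNA-seq was done on poly(A) RNA from entire seedlings. There were 4 genotypes, Col-0, dvl1-1D, bsk36 (BSK3 and BSK6 mutated) and pif47 (PIF4 and PIF7 mutated), with 3 replicates in each of 8 groups of genotype and light. All seedlings were 6 days old and grown in white light (WL). They then stayed in WL or were given low R:FR (R:FR 0.3) for 6 h. dvl1-1D is an activation-tagged line with a T-DNA in the promoter of RTFL18, so RTFL18 is raised at its own locus, and the comparison rests on 1 such line. The labels do not say whether replicates came from separate sowings, so p-values measure the spread between these samples.

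RTFL/DVL peptides are short plant peptides, and plants that overexpress a member are known for compact organs, rounded leaves and altered fruit tips. Low R:FR inactivates phytochrome B, which lets PIF transcription factors accumulate and switch on genes of auxin synthesis and cell elongation. BSKs are receptor-associated kinases of brassinosteroid (BR) signaling, a hormone pathway that promotes elongation. The comparison asks which transcripts differ between seedlings with much and with little RTFL18 once both have been in low R:FR for 6 h.

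The FPKM of the 6 libraries summed to between 777131 and 795848. Their relative depth, read from the steps between low values of 107 genes, was 0.857 to 1.09, with replicate 2 of Col-0 lowest, and the absolute depth is unknown. Correlations of log2 values across genes were 0.960 to 0.973 among the Col-0 libraries and 0.970 to 0.979 among the dvl1-1D libraries. Under low R:FR, replicate 3 of Col-0 stood apart from its group in several genes. SEN1, a sugar-starvation gene, had 347, 332 and 137 FPKM in the 3 Col-0 libraries, and XTH31, a cell wall enzyme gene, had 10.9, 11.1 and 25.7.

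RTFL18 (AT5G16023) was raised strongly in dvl1-1D, as the label says. Its levels were 12.9, 12.8 and 11.1 FPKM in Col-0 and 975, 965 and 788 in dvl1-1D in low R:FR. No library of one group came near the other. The log2 fold change was 6.19 (SE 0.529, adjusted p = 2.59e-07). All tests here are limma's moderated test on log2(FPKM + 0.1), with p-values adjusted by the Benjamini-Hochberg method over the 19288 genes. A gene that passed has an adjusted p under 0.05, and a gene that was called also differs by 1 or more on the log2 scale. In WL, RTFL18 had 0.46, 0.70 and 0 FPKM in Col-0 and 618, 517 and 528 in dvl1-1D. The interaction of genotype and light was -4.41 on the log2 scale (adjusted p = 0.00498), a size that depends on the pseudocount because the Col-0 values in WL were near 0. In FPKM the genotypes lay further apart in low R:FR than in WL.

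**Figure D1:**
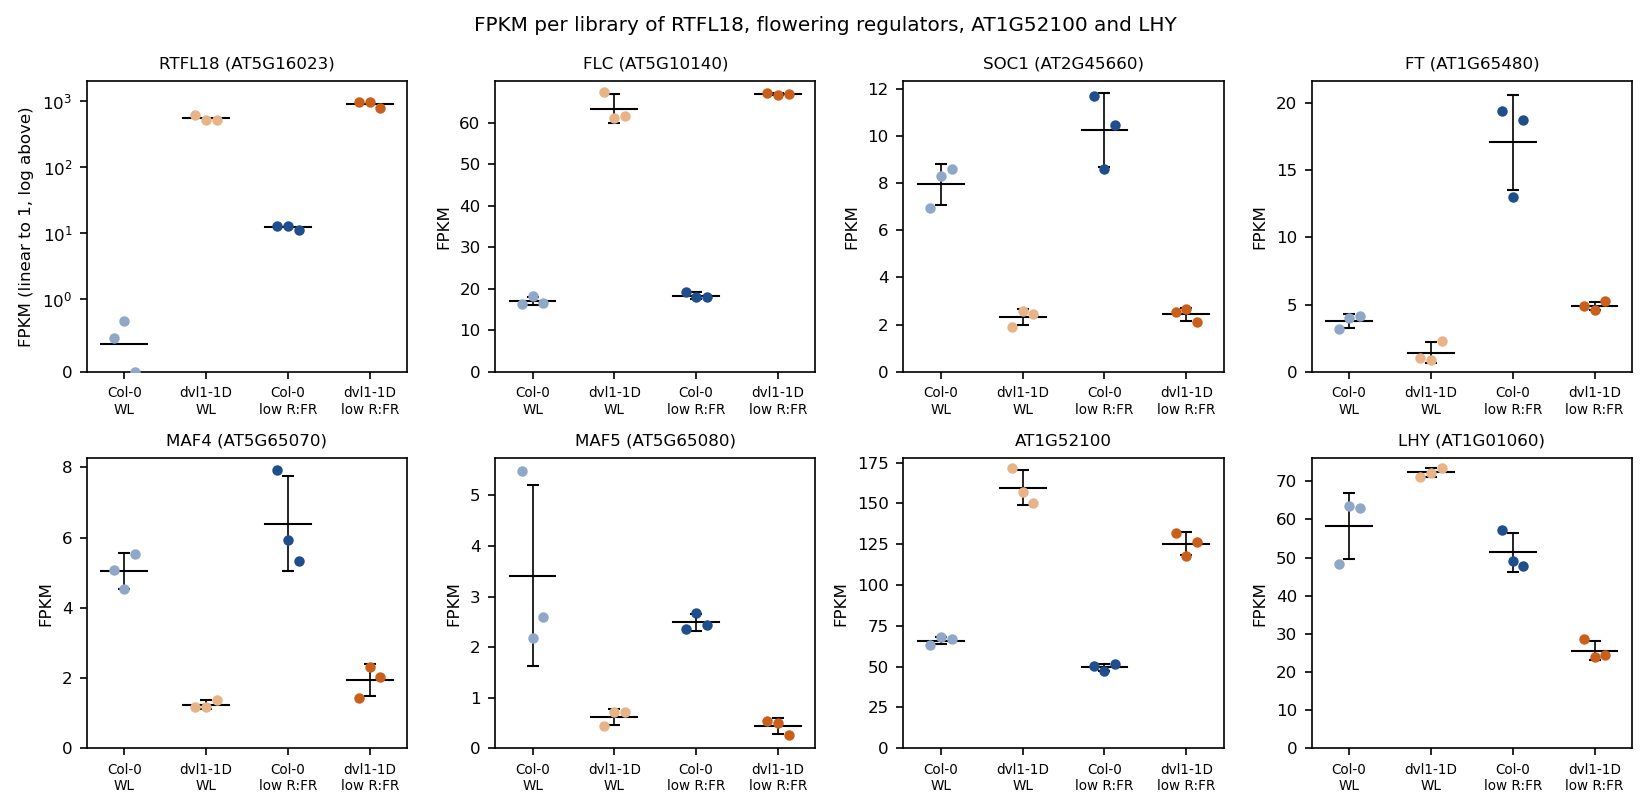
FPKM in each library (points) of RTFL18, the flowering regulators FLC, SOC1, FT, MAF4 and MAF5, the lectin gene AT1G52100 and the clock gene LHY, in Col-0 and dvl1-1D in WL and in low R:FR. Lines are means and bars SD over 3 libraries, the RTFL18 axis is linear to 1 and logarithmic above, and dvl1-1D and Col-0 do not overlap in low R:FR in any panel.

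No relative of RTFL18 passed the test beside it. Of 24 RTFL/DVL genes listed, 16 were tested, and RTFL18 was the 1 that passed in low R:FR (median log2 fold change over the 16 was -0.08). Among all tested genes 10.1% passed. RTFL17 had 67.1, 57.6 and 62.3 FPKM in Col-0 and 60.3, 59.4 and 52.3 in dvl1-1D (log2 fold change -0.12). RTFL16 had 118.5, 118.9 and 132.4 FPKM in Col-0 and 120.2, 116.8 and 97.5 in dvl1-1D (-0.15). The values of both genes overlapped between the groups. RTFL21 (-0.04) and RTFL13 (0.01), 2 other members that the study follows as low R:FR-responsive, also overlapped. RTFL10 had 1.47, 2.98 and 1.12 FPKM in Col-0 and 0.36, 0.75 and 1.49 in dvl1-1D (-1.08, adjusted p = 0.106), and it passed without replicate 3 of dvl1-1D (-1.53, adjusted p = 0.0388). ROT4 lay below the limit on low values, with 0.38 to 0.66 FPKM.

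Genes next to RTFL18 were higher in dvl1-1D too. The 5 annotated genes on each side were taken in the gene order of the RefSeq annotation, and with RTFL18 itself 8 of these 11 genes were tested. Of the 8, 7 passed as higher (RTFL18 included) and 0 as lower, against 6.05% and 4.1% of all tested genes. RTFL18 is the gene that the line overexpresses, so its pass was given in advance. GEX3 reached the limit of 1 FPKM through the dvl1-1D libraries alone, which favours a difference. The count was 6 to 7 when 1 library was left out. GEX3 (AT5G16020), the gene just before RTFL18 in this order and known as a gamete-expressed gene, had 0, 0 and 0.02 FPKM in Col-0 and 3.31, 2.39 and 1.88 in dvl1-1D (adjusted p = 0.000643). It was almost absent from Col-0, so the size of its fold change depends on the pseudocount. GEX3 was also detected in dvl1-1D in WL, with 0.79, 0.61 and 0.50 FPKM against 0, 0 and 0.05 in Col-0 (adjusted p = 0.0435). AT5G16030 had 162.5, 135.7 and 150.1 FPKM in Col-0 and 258, 238 and 225 in dvl1-1D (log2 fold change 0.69, SE 0.0884, adjusted p = 4.65e-05). AT5G16010, AT5G16040 and the receptor-like kinase gene NIK1 were higher by 0.42, 0.48 and 0.35 on the log2 scale. Each of these 4 genes kept its groups apart. AT5G02515, a long non-coding RNA gene, passed (0.46, adjusted p = 0.0383) but did not when any of 5 of the 6 libraries was left out (0.377 to 0.525, largest adjusted p = 0.15), and AT5G16050, which encodes a 14-3-3 protein, did not pass (0.09, adjusted p = 0.383). In WL, RTFL18 and GEX3 were the only 2 of the 8 that passed.

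**Figure D2:**
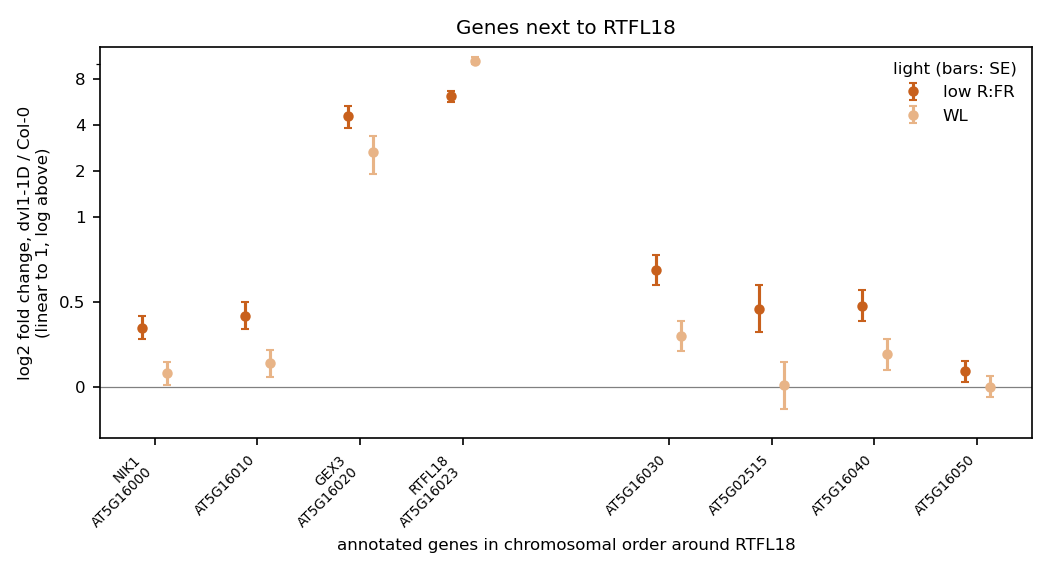
Log2 fold change between dvl1-1D and Col-0 of RTFL18 and the tested genes around it, in the order of the RefSeq annotation, in low R:FR and in WL. Points are estimates, bars standard errors, the vertical axis is linear to 1 and logarithmic above, and the low R:FR points are above 0 for all 8 genes.

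Across all tested genes, 1957 (10.1%) passed in low R:FR, 1167 higher (6.05%) and 790 lower (4.1%) in dvl1-1D. Most of these differences were small. The median absolute log2 fold change of the genes that passed was 0.38, a 1.30-fold difference, and 1828 of them lay under 2-fold. The number that passed depended on single Col-0 libraries. Without replicate 2 of Col-0, 556 genes passed as higher and 389 as lower, and without replicate 3 of Col-0, 1587 passed as higher. Without replicate 1 of Col-0 or replicates 1 or 3 of dvl1-1D, 757, 744 and 656 passed as higher, and without the latter pair 477 and 460 passed as lower. With the 6 libraries fitted alone, 273 genes passed as higher and 323 as lower. Called were 129 genes (0.669%), of which 59 were higher (0.306%) and 70 lower (0.363%). Leaving out 1 library gave 44 to 107 higher and 56 to 79 lower, the 107 without replicate 3 of Col-0. In 125 of the 129 the 3 Col-0 and 3 dvl1-1D values did not overlap, as in 28.1% of all tested genes. Of the called genes, 36 reached the limit of 1 FPKM through 1 group alone, which favours a difference.

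Many called genes also differed in WL, which uses other libraries. In WL, 959 genes (4.97%) passed, 2.84% higher and 2.13% lower, and 112 (0.581%) were called. Called in both lights in the same direction were 37 genes, 28.7% of those called in low R:FR and 33% of those called in WL. The 70 genes called lower had a median log2 fold change of -1.33 in low R:FR and -0.80 in WL, where 59 were below 0. The 59 called higher had a median of 1.29 in low R:FR and 0.26 in WL, where 38 were above 0. These genes were chosen by the size of their low R:FR difference, which favours smaller medians in WL. The gap between the medians is therefore not a result about light. The interaction of genotype and light, the fold change in low R:FR minus that in WL, passed for 499 genes (2.59%), 232 higher (1.2%) and 267 lower (1.38%). It passed for 29 of the 129 called genes, 14 higher and 15 lower, a share of 22.5% that is not independent because the same low R:FR libraries enter both.

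**Figure D3:**
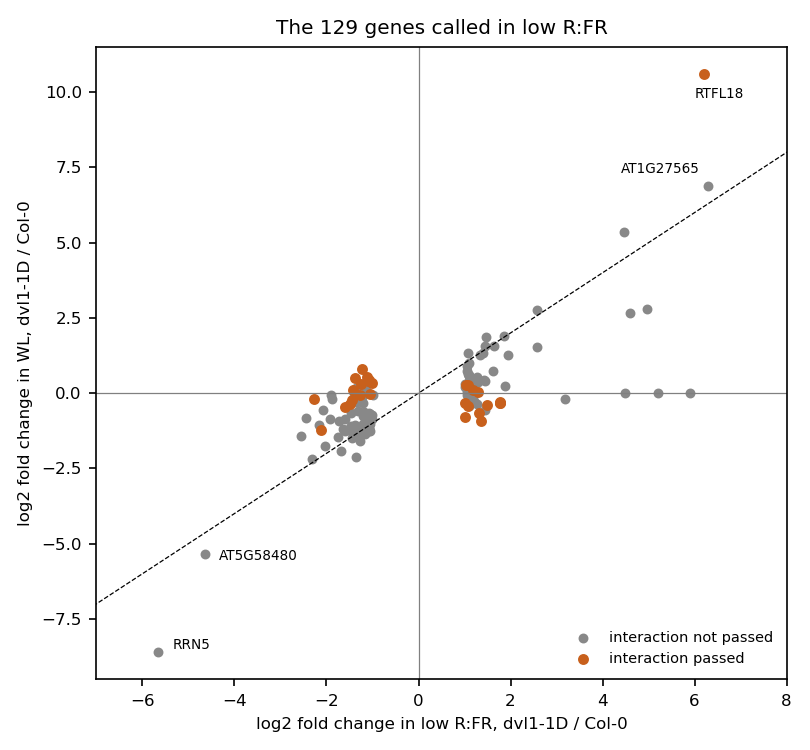
Log2 fold change between dvl1-1D and Col-0 in low R:FR (horizontal) and in WL (vertical) of the 129 genes called in low R:FR. Orange points passed the interaction of genotype and light, and the dashed line marks equal values. The genes called higher have a median of 0.26 on the WL axis and 1.29 on the low R:FR axis, by which they were chosen.

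The flowering regulators held some of the largest differences. FLC (AT5G10140), a MADS-box repressor of flowering, had 19.2, 17.9 and 17.9 FPKM in Col-0 and 67.2, 66.6 and 66.9 in dvl1-1D. The libraries of each group lay close together and far from the other group. The log2 fold change was 1.86 (SE 0.0847, adjusted p = 1.69e-11). In WL the values were 16.4, 18.1 and 16.4 against 67.3, 61.2 and 61.5 FPKM (log2 fold change 1.89), and the interaction was -0.03. Neither bsk36 (-0.03) nor pif47 (-0.23) had a comparable FLC difference from the same Col-0 libraries in low R:FR, which all 3 comparisons share.

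SOC1 (AT2G45660), a MADS-box promoter of flowering, had 11.7, 8.60 and 10.5 FPKM in Col-0 and 2.54, 2.65 and 2.11 in dvl1-1D (log2 fold change -2.03, SE 0.153, adjusted p = 5.22e-08). FT (AT1G65480), which encodes the mobile flowering signal, had 19.4, 13 and 18.8 FPKM in Col-0 and 4.88, 4.63 and 5.25 in dvl1-1D (-1.75, SE 0.274, adjusted p = 0.000443). In neither gene did the groups overlap. Both were lower in dvl1-1D in WL as well, by -1.74 and -1.47 on the log2 scale.

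MAF4, MAF5 and FLM, relatives of FLC, were lower in dvl1-1D. MAF4 had 7.93, 5.93 and 5.34 FPKM in Col-0 and 1.44, 2.33 and 2.04 in dvl1-1D (log2 fold change -1.68, adjusted p = 1.36e-05). MAF5 had 2.35, 2.68 and 2.44 FPKM in Col-0 and 0.54, 0.51 and 0.26 in dvl1-1D (-2.31, adjusted p = 8.87e-06). Both were lower by a like amount in WL (-1.93 and -2.19). MAF5 reached the limit of 1 FPKM through the Col-0 libraries alone, which favours a difference. FLM (MAF1) fell by 0.52 (adjusted p = 0.000853), and MAF2 and MAF3 had -0.49 and -0.39 (adjusted p = 0.0571 and 0.0993). MAF2 passed as lower with a mean of at least 5 FPKM, the 6 libraries alone, or median or quantile scaling (adjusted p = 0.0297 to 0.0483). It did not pass when any 1 library was left out. The MAF genes are alike in sequence and lie in part side by side, and FLC has antisense transcripts, so reads of copies or of antisense RNA could be counted with them where strand was not used, which the sources used here do not state. In a list of 30 flowering genes made after these values were seen, 27 were tested, 2 passed as higher and 8 as lower (median -0.13). Those were 7.41% and 29.6%, against 6.05% and 4.1% of all tested genes. The other 4 that passed as lower were FLM, CDF2, CDF3 and TEM1, of which CDF2, CDF3 and TEM1 lost significance without some libraries, so that 5 passed as lower without replicate 2 of Col-0 or replicate 3 of dvl1-1D. MSI4 (FVE), a chromatin protein gene of the autonomous flowering pathway, was higher by 0.30 (adjusted p = 0.00167). SVP (0.02) and CO (0.05), a repressor and an activator of FT, had overlapping values.

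Chaperone genes of the heat shock response were higher in dvl1-1D. HSFA2, a heat stress transcription factor gene, had 0.52, 0.37 and 0.43 FPKM in Col-0 and 1.87, 2.07 and 1.95 in dvl1-1D (log2 fold change 1.94, SE 0.241, adjusted p = 2.82e-05). HSP70 (AT3G12580) had 11.8, 15.4 and 15.4 FPKM in Col-0 and 37.2, 36.3 and 38.3 in dvl1-1D (1.39, adjusted p = 9.39e-07). The groups were apart in both genes, and both were also higher in WL (1.26 and 1.33). HSFA2 reached the limit of 1 FPKM through the dvl1-1D libraries alone, which favours a difference. In the list of 7 heat shock genes, 4 were tested and 3 passed as higher, HSFA2, HSP90.1 (0.75) and HSP101 (0.53), and they passed whichever library was left out. HSFA7A had -0.28 (adjusted p = 0.247). The small chaperone genes HSP14.7 and HSP23.5 were called with 1.65 and 1.63. Of 25 tested genes that their descriptions call heat shock proteins, a grouping made after the values were seen, 11 passed as higher and 1 as lower, against 6.05% and 4.1% of all tested genes. That count was 6 without replicate 1 or 2 of Col-0 or replicate 1 or 3 of dvl1-1D. It was 7 without replicate 2 of dvl1-1D and 13 without replicate 3 of Col-0.

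Among genes with a group mean of at least 5 FPKM, other large increases came from genes of varied or unknown function. AT1G27565, a gene of unknown function, had 0, 0.17 and 0 FPKM in Col-0 and 8.56, 13.4 and 10.9 in dvl1-1D, and in WL it was listed at 0 in all Col-0 libraries and had 11.1 to 12.7 in dvl1-1D. AT4G04223, annotated as other RNA, had 7.32, 6.98 and 9.20 against 47.6, 50.1 and 42.7 FPKM (log2 fold change 2.57, adjusted p = 1.25e-06, 2.76 in WL). AT1G52100, of the mannose-binding lectin family, had 50.2, 47.2 and 51.4 FPKM in Col-0 and 132, 118 and 126 in dvl1-1D (1.33, SE 0.0605, adjusted p = 1.69e-11), with 1.27 in WL. None of these 3 overlapped between groups, and none passed the interaction. AT1G27565 reached the limit of 1 FPKM through the dvl1-1D libraries alone, which favours a difference. Values were less even in GLP9, a germin-like protein gene, which had 0.79, 1.61 and 1.74 FPKM in Col-0 and 2.58, 15.9 and 3.13 in dvl1-1D (1.88, adjusted p = 0.0416). Without replicate 2 of dvl1-1D its log2 fold change was 1.06, and its adjusted p reached 0.226 over the alternatives.

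In several called genes the difference in WL was smaller or had the other sign. BGLU18, whose enzyme releases abscisic acid from a conjugate, had 42.6, 37.4 and 47.4 FPKM in Col-0 and 87.3, 87.2 and 85.2 in dvl1-1D (log2 fold change 1.03, SE 0.0672, adjusted p = 5.89e-09). In WL its values were 53.9, 57.6 and 55.2 against 71.6, 65.5 and 66.3 (0.29), and the interaction was 0.75 (adjusted p = 0.000746). AT5G33370, a GDSL lipase gene, had 2.11, 2.17 and 3.45 against 6.42, 10.3 and 10.3 FPKM (1.77, adjusted p = 0.000217, -0.29 in WL, interaction adjusted p = 0.0063). LOX2, a lipoxygenase gene of jasmonate synthesis, had 5.18, 3.64 and 10.8 against 16.5, 12.5 and 17.42 FPKM in low R:FR and 32.7, 36.0 and 25.0 against 17.8, 14.2 and 16.2 in WL. Its log2 fold change was 1.36 (adjusted p = 0.0193) in low R:FR and -0.94 in WL, but in low R:FR it did not pass without replicate 1 or 2 of Col-0 or replicate 1 or 3 of dvl1-1D (1.02 to 1.31, adjusted p up to 0.126). LOX3 rose by 0.85 (adjusted p = 0.000666), and these were the 2 of 16 jasmonate genes that passed (12.5%, against 10.1% of all tested genes).

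NIA1 and NIR1, which encode the enzymes that reduce nitrate and nitrite, were lower in dvl1-1D. NIA1, a nitrate reductase gene, had 374, 448 and 329 FPKM in Col-0 and 155, 166 and 149 in dvl1-1D, with no overlap (log2 fold change -1.28, adjusted p = 1.37e-07). In WL its values overlapped, 178, 213 and 227 against 190, 197 and 205 FPKM (-0.05), and the interaction passed (-1.23, adjusted p = 0.000389). NIR1, the nitrite reductase gene, had 335, 346 and 322 FPKM in Col-0 and 217, 214 and 206 in dvl1-1D (-0.65, adjusted p = 4.26e-08), and it was lower in WL too (-0.50). BT1, a BTB-domain gene known to respond to nitrate, had 119, 131 and 79.2 against 40.0, 41.5 and 37.3 FPKM (-1.44, adjusted p = 1.67e-06). The interaction passed for BT1 as well (-1.21, adjusted p = 0.00474), where WL gave -0.23.

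Among the other genes called lower, LEA3 (AT1G02820, a late embryogenesis abundant protein gene) had 41.4, 37.3 and 33.5 FPKM in Col-0 and 15.1, 11.6 and 13.1 in dvl1-1D (log2 fold change -1.49, adjusted p = 5.77e-08, interaction -1.12). AT1G66100, a thionin gene, had 112, 101 and 91.4 against 30.7, 34.4 and 34.7 FPKM (-1.60, adjusted p = 9.94e-07, interaction -1.16). AGT3, an aminotransferase gene of glyoxylate metabolism, had 16.5, 20.3 and 16.1 against 8.27, 8.75 and 8.24 FPKM (-1.05, interaction -1.03). In these 3 the groups were apart in low R:FR, and the log2 fold changes in WL were -0.37, -0.45 and -0.03. AT1G29600, a zinc finger gene, and TPX2 (AT1G65970, a peroxiredoxin gene) fell by 2.15 and 1.74. AT4G36850, of the PQ-loop family, fell by 2.28 in low R:FR and had -0.21 in WL (interaction adjusted p = 0.0244). AT5G58480, a glucanase gene, had 1.08, 3.48 and 3.60 FPKM in Col-0 and was listed at 0 in all 3 dvl1-1D libraries, in WL as in low R:FR. Its mean reached the limit of 1 FPKM through the Col-0 libraries alone, which favours a difference. MIR171a had 23.9, 2.57 and 22.0 against 1.47, 1.68 and 2.40 FPKM (-2.55, adjusted p = 0.0416), and without replicate 1 of Col-0 it had -2.01 (adjusted p over the alternatives up to 0.174). RRN5, a mitochondrial ribosomal RNA, had 27.8, 42.3 and 28.3 against 0, 0 and 26.2 FPKM, in libraries made from poly(A) RNA.

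Sulfur-deficiency genes were higher in dvl1-1D in low R:FR and not in WL. Of 17 such genes listed, 15 were tested. Of these, 8 passed as higher and 0 as lower, against 6.05% and 4.1% of all tested genes. All 15 estimates were above 0 (median log2 fold change 0.58, against 0.02 over all tested genes). In WL 0 passed as higher and 2 as lower (median -0.39), and the interaction, which shares the low R:FR libraries, was higher for 9 of the 15. LSU3, of a small family named for its response to low sulfur, had 1.80, 1.66 and 2.61 FPKM in Col-0 and 5.08, 4.49 and 5.83 in dvl1-1D (1.32, adjusted p = 0.000198). In WL LSU3 had 3.35, 5.30 and 4.52 against 2.71, 2.46 and 2.97 FPKM. The order of the groups was thus the opposite in the 2 lights, without overlap in either. LSU2 (1.02, adjusted p = 0.0116) was called, and LSU1 had 1.54 (adjusted p = 0.0659). The LSU genes are alike in sequence, so reads could be split between them. APR1, whose enzyme reduces activated sulfate, had 14.01, 11.9 and 19.6 against 26.05, 27.2 and 25.8 FPKM (0.82, adjusted p = 0.00264) and -0.54 in WL. APR3 (0.67), SDI2 (0.66), SULTR4;2 (0.66), SHM7 (0.32) and APS3 (0.27) passed too. The count of 8 was 4 without replicate 2 of Col-0 and 9 without replicate 3 of Col-0.

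Some clock genes, LHY and CCA1 among them, were lower. Of 14 clock genes, 5 passed as lower and 1 as higher, against 4.1% and 6.05% of all tested genes. Of their estimates 11 were below 0 (median -0.26). LHY, a MYB-like factor that peaks at dawn, had 57.3, 49.1 and 47.8 FPKM in Col-0 and 28.5, 23.8 and 24.4 in dvl1-1D (log2 fold change -1.004, adjusted p = 3.1e-05). CCA1, its partner, had 54.6, 48.4 and 45.3 against 29.5, 25.3 and 23.6 FPKM (-0.92, adjusted p = 3.01e-05). In WL they had 0.32 and 0.15, neither of which passed, and the interaction passed for both (-1.33 and -1.07, adjusted p = 0.00116 and 0.00243). RVE8 (-0.75), RVE4 (-0.38) and ELF3 (-0.22) passed as lower and ELF4 (0.34) as higher, which it did not without replicate 1 of Col-0 (0.23, adjusted p = 0.0582, up to 0.106 over the alternatives). RVE6 had -0.31 (adjusted p = 0.0609). The evening genes TOC1 (-0.04) and GI (0.04) had values near 0. In WL 5 clock genes passed as higher and 1 as lower. The interaction was lower for 6 of 14. The count of 5 was 3 without any 1 of the low R:FR libraries other than replicate 3 of Col-0.

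Sugar-starvation genes were below 0 in all 9 estimates (median -0.47), and 3 passed as lower, the trehalose-phosphate synthase genes TPS9 (-0.84) and TPS10 (-0.45) and EXL2 (-0.47). Those 3 were 33.3% of the list, against 4.1% of all tested genes. In WL the median was 0.32. This list turned on replicate 3 of Col-0. Without that library 7 of 9 passed as lower, and without replicate 2 of Col-0 or replicate 1 or 3 of dvl1-1D 1 did. SEN1, with the Col-0 values above, had 132, 170 and 147 FPKM in dvl1-1D (log2 fold change -0.75, adjusted p = 0.242). In WL it had 10.2, 11.8 and 13.1 against 52.4, 34.1 and 34.5 FPKM (1.75, adjusted p = 0.0135), with an interaction of -2.50 (adjusted p = 0.0244). ASN1 (-0.999) and BCAT2 (-1.37) had adjusted p = 0.0872 and 0.0551, and BCAT2 (AT1G10070) passed as lower without replicate 3 of Col-0 (-1.83, adjusted p = 0.0136) and with a pseudocount of 0.5 or 1 (adjusted p = 0.0498 and 0.0463, and up to 0.208 over the other alternatives).

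**Figure D4:**
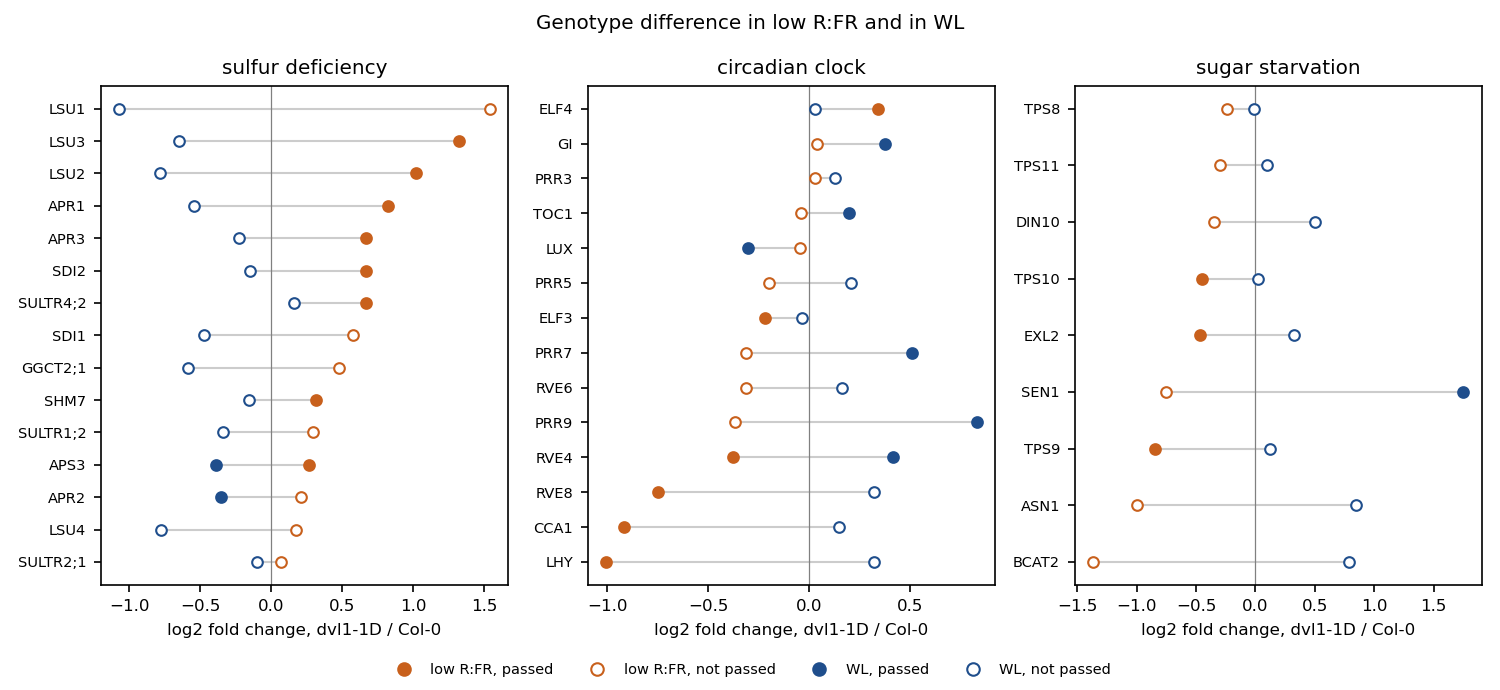
Log2 fold change between dvl1-1D and Col-0 of each tested gene of the sulfur deficiency, circadian clock and sugar starvation lists, in low R:FR (orange) and in WL (blue). Filled points passed the test, and in low R:FR all 15 sulfur deficiency genes are above 0 and all 9 sugar starvation genes below 0.

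The marker genes of the shade response differed little between the genotypes. Of 20 listed, 19 were tested, 0 passed as higher and 1, FT, as lower (median log2 fold change -0.14), while 16 of the 19 estimates were below 0. The share that passed was 5.26%, against 10.1% of all tested genes. HAT2 (AT5G47370), an auxin-induced homeodomain gene, had -0.23 (adjusted p = 0.0516) and passed as lower with a pseudocount of 0.5 or 1, with a mean of at least 5 FPKM, with quantile scaling and without replicate 3 of Col-0 (-0.29 to -0.23, adjusted p = 0.0249 to 0.0494, and up to 0.208 over the other alternatives). PIL1, an early low R:FR-induced bHLH gene, had 28.1, 27.9 and 28.7 FPKM in Col-0 and 32.2, 35.1 and 34.5 in dvl1-1D (0.26, 95% interval -0.06 to 0.59, adjusted p = 0.31), and it passed with a pseudocount of 1 (adjusted p = 0.0438). HFR1, a bHLH gene that restrains the response, had 129, 111 and 115 against 127, 118 and 110.1 FPKM (0.00, interval -0.32 to 0.32). ATHB2, a homeodomain gene, had 68.3, 64.8 and 69.4 against 64.5, 62.9 and 60.7 FPKM (-0.11, interval -0.35 to 0.14). The groups were close to each other or overlapped in these genes. The auxin genes YUC8 (-0.14, interval -0.53 to 0.24), IAA19 (-0.11, interval -0.36 to 0.15) and IAA29 (-0.26, interval -0.69 to 0.17) did not pass. Against the same Col-0 libraries, pif47 had -2.97 for YUC8 and -3.29 for IAA29.

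Among BR synthesis genes 20% passed and among BR signaling genes 6.67%, against 10.1% of all tested genes. Of 10 BR synthesis genes, BR6OX2, which makes brassinolide, passed as higher with 14.5, 14.2 and 17.6 FPKM in Col-0 and 25.7, 21.2 and 19.9 in dvl1-1D (log2 fold change 0.52, adjusted p = 0.00524, and 0.0641 with the 6 libraries alone). DET2, an early reductase of the pathway, passed as lower with 13.9, 15.1 and 14.6 against 10.04, 10.3 and 11.2 FPKM (-0.46, adjusted p = 0.0109), and had an adjusted p of 0.0524, the largest over its alternatives, without replicate 2 of Col-0. The groups did not overlap in either gene. None of 7 BR inactivation genes, 9 BSK genes, 7 PIF genes and 7 growth-related bHLH genes passed. Of 15 BR signaling genes BKI1 (-0.31, adjusted p = 0.0409), an inhibitor of the BR receptor, passed, but not when any 1 of the 6 libraries was left out (adjusted p up to 0.107). Of the auxin-related families, 1 of 27 genes with an IAA symbol passed as higher (IAA8, an Aux/IAA gene, 0.37), where IAA21, IAA22 and IAA24 are auxin response factor genes, 1 of 59 SAUR genes as higher (SAUR32, 0.28, not without any 1 library, adjusted p up to 0.116) and 1 as lower (SAUR6, -0.53), and 0 of 6 GH3 genes. No gene of auxin synthesis (7 tested), gibberellin oxidation (9), ethylene synthesis (14) or salicylic acid defense (8) passed. Each count of 0 stands against 10.1% of all tested genes, and in lists this small that difference was not tested.

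Cell wall genes moved in both directions. Of 28 xyloglucan endotransglucosylase/hydrolase (XTH) genes, whose enzymes cut and rejoin wall xyloglucan, 5 passed as higher (3 without replicate 2 of Col-0) and 3 as lower (median log2 fold change -0.11). Those were 17.9% and 10.7%, against 6.05% and 4.1% of all tested genes. TCH4, a touch-induced member, had 60.8, 73.4 and 51.2 FPKM in Col-0 and 35.0, 39.4 and 35.6 in dvl1-1D (-0.74, adjusted p = 0.00557). In WL the order was reversed, with 11.7, 11.3 and 14.1 against 23.9, 19.1 and 20.5 FPKM (0.77, adjusted p = 0.0075, interaction -1.51). XTH31 had 33.9, 28.3 and 29.9 FPKM in dvl1-1D against the Col-0 values above (1.06, adjusted p = 0.0151), and its difference was smallest against replicate 3 of Col-0. XTH9 (0.48), XTH7 (0.34), XTH32 (0.56) and XTH28 (0.27) passed as higher, and XTH8 (-0.35) and XTH6 (-0.27) as lower. Of 23 expansin genes 4 passed as higher and 1, EXLA2 (-0.48), as lower, and the count of 4 fell to 1 without replicate 1 of Col-0 or replicate 3 of dvl1-1D, 0 without replicate 2 of Col-0 and 2 without replicate 2 of dvl1-1D, and was 6 without replicate 3 of Col-0.

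Genes that respond to low R:FR in the other genotypes were examined because their fold changes use no Col-0 or dvl1-1D library. Their choice was not fully separate. The P values used a spread estimated over all 24 libraries, and the genes had to meet the FPKM limit over the 6 compared libraries. Of 69 genes induced in both bsk36 and pif47, 3 passed as higher in dvl1-1D, RTFL18 among them, and 4 as lower (median log2 fold change -0.04), a share near that of all tested genes (both 10.1%). Of 27 genes repressed in both, 5 passed as higher and 0 as lower (median 0.24), against 6.05% and 4.1% of all tested genes. The 5 became 3 to 8 when 1 library was left out, 3 without replicate 2 and 8 without replicate 3 of Col-0. GRXC13, a glutaredoxin gene of this group, had 5.75, 5.21 and 5.83 FPKM in Col-0 and 15.7, 12.4 and 13.6 in dvl1-1D (1.29, adjusted p = 8.6e-06), while its WL values overlapped (0.03, interaction 1.27). NRT2.3, a nitrate transporter gene, had 0.83, 0.74 and 0.70 against 1.76, 2.61 and 2.44 FPKM (1.45, adjusted p = 0.000203). It is 1 of the 5, and it reached the FPKM limit through the dvl1-1D libraries alone, which favours a difference. Among the low R:FR-responsive genes that the study listed for Col-0, 75 of 237 repressed genes passed as higher and 3 as lower, and 45 of 382 induced genes passed as lower and 2 as higher. The 75 became 35 and the 45 became 18 without replicate 2 of Col-0, 48 and 25 without replicate 1 and 47 and 22 without replicate 3 of dvl1-1D, and the 75 became 49 without replicate 1 of Col-0. Among those the study also listed as BR-responsive, 18 of 129 induced genes passed as lower and 0 as higher, and 11 of 52 repressed genes passed as higher and 1 as lower (medians -0.21 and 0.28). The 18 became 6 without replicate 2 of Col-0 and 8 without replicate 1 or 3 of dvl1-1D. The 11 became 5 and 7 without replicates 2 and 1 of Col-0, 6 without replicate 1 or 3 of dvl1-1D and 20 without replicate 3 of Col-0. Those lists were drawn from these Col-0 libraries, so their direction is not independent evidence.

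Markers of cell types were compared because the samples were whole seedlings. In bulk RNA, fewer cells of a type and less RNA per cell cannot be told apart. Of 11 root and root hair markers 1 passed as higher (BGLU23, 0.35, not without 5 of the 6 libraries in turn, adjusted p up to 0.228) and 1 as lower (SCR, -0.22). All tested genes had 6.05% higher and 4.1% lower. Of the 11 estimates 8 were below 0 (median -0.22), while the summed levels were 1003 to 1477 FPKM in Col-0 and 1425 to 1616 in dvl1-1D. Of 8 stomatal lineage markers 2 passed as higher, BASL (0.68) and TMM (0.32), neither in every leave-one-out fit (adjusted p up to 0.11 for BASL, without replicate 2 of Col-0, and 0.184 for TMM, which failed without any 1 library), and the sums were 42.4 to 50.8 in Col-0 and 53.0 to 57.1 in dvl1-1D. Trichome markers had 1 of 5 higher, GL2 (0.37, adjusted p up to 0.111 in the 4 leave-one-out fits where it did not pass), with 4 of 5 above 0 and sums of 13.6 to 16.6 in Col-0 and 17.6 to 19.7 in dvl1-1D, which did not overlap. Mesophyll markers had 1 of 6 higher (GLK1, 0.42) and 1 lower, LHCB1.1 (-0.41, not without replicate 1 of Col-0 or 3 of dvl1-1D, adjusted p up to 0.074), with sums of 23036 to 27434 and 23438 to 25454 FPKM. None of these markers was at 0 in a whole group. Their part in the other results was not tested.

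One stretch of chromosome 4 was lower as a block. From AT4G35250 to AT4G35460, 19 protein-coding genes were tested, all 19 were below 0 in dvl1-1D, and 17 passed as lower in low R:FR and 17 in WL. The stretch was noticed in the values, so these counts describe it. CPK5, a calcium-dependent protein kinase gene, had 70.9, 80.8 and 78.7 FPKM in Col-0 and 35.6, 38.5 and 34.7 in dvl1-1D (log2 fold change -1.08, adjusted p = 1.07e-10). HCF244 and AKR2, genes of chloroplast protein biogenesis, had -0.96 and -0.97. The genes that passed ranged from -1.31 (GLUR2) to -0.62 (NTRB), with a median over the 19 of -0.93 in low R:FR and -1.03 in WL. The 20 tested genes on each side had a median of 0.07, and 0 of these 40 passed as lower in both lights. bsk36 and pif47 had medians of -0.83 and -0.89 over the same 19 genes, against the Col-0 libraries that all 3 comparisons share. Relative to the mean of the 6 pif47 libraries, the median level over 18 of these genes was 1.72 to 1.96 in each Col-0 library and 0.909 to 1.03 in each dvl1-1D library, in WL or low R:FR, and it was 0.999 to 1.08 in each bsk36 library, so the 6 Col-0 libraries stood apart from the other 3 genotypes. Without this stretch 65 genes were called lower in place of 70, and 773 in place of 790 passed as lower.

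**Figure D5:**
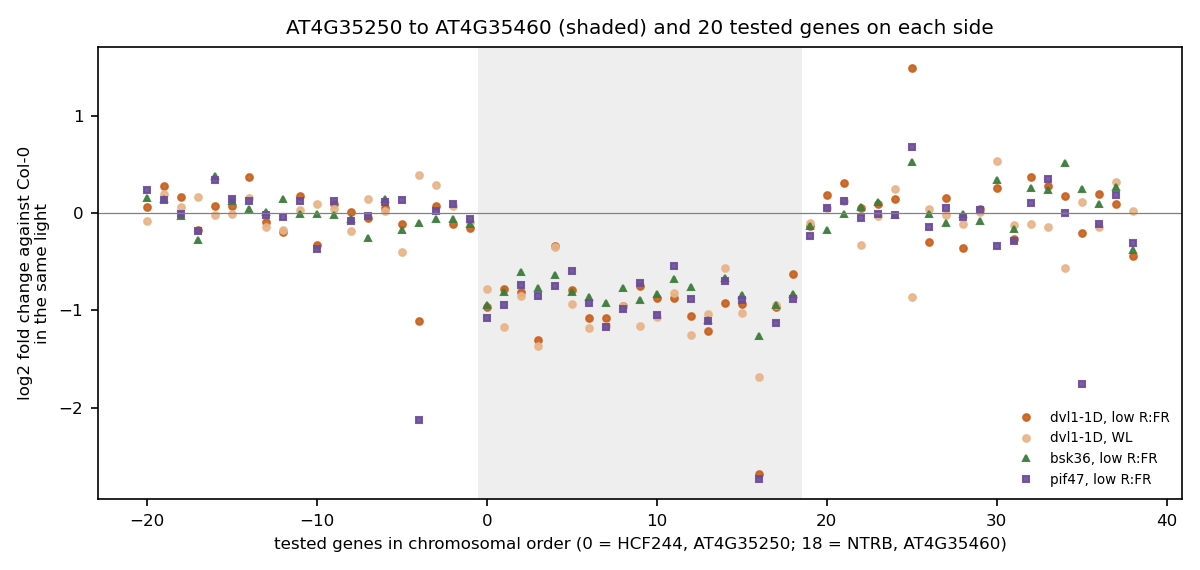
Log2 fold change against Col-0 in the same light of the tested genes from AT4G35250 to AT4G35460 (shaded) and of 20 tested genes on each side, by place in the gene order. Points show dvl1-1D in low R:FR and in WL and bsk36 and pif47 in low R:FR, all 4 of which lie below 0 across the shaded stretch, with medians from -1.03 to -0.83.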

How the data were processed

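RNA-seq values of 24 libraries were used, 3 replicates of each of 8 groups. The authors deposited FPKM with 2 decimals for 32833 genes. Per the labels, fastp, cutadapt, HISAT2 and DESeq2 were among the submitters' tools and TAIR10 was the genome build, with no versions given. Strand use in counting is not given in the sources used here. The 8 columns of the authors' group means were not used. Names came from the deposited values and a RefSeq table of TAIR10.1, where 19228 of the 19288 tested genes matched.

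limma 3.58.1 was run in R 4.3.3 on log2(FPKM + 0.1) with 8 group means (eBayes with a mean-variance trend, no term for the replicate number), and p-values were adjusted over all 19288 genes. Fold changes are on the log2(FPKM + 0.1) scale, which understates changes of low genes. The test was checked on simulated data with independent noise for each gene and library. That check could not show the effect of library deviations shared by many genes. FPKM give no read number, so no counting interval was computed.

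The members and gene lists were chosen with earlier results of these data known. Named were RTFL18 and its family, the 12 largest changes each way among called genes with no overlap and a group mean of at least 5 FPKM, the 10 smallest p, up to 4 genes a list by p, the 5 neighbours on each side and the 6 called genes with the smallest interaction p. Other genes were named after their values were seen. Alternatives were pseudocounts of 0.5 and 1, no filter or a mean of 5 FPKM, the 6 libraries alone, median and quantile scaling, no trend, a replicate block and leaving out each library. The fit of the 4 Col-0 and dvl1-1D groups alone and the counts without the chromosome 4 stretch were added after seeing the data.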

Additional observations from a re-analysis of the deposited data

Results flagged for a closer look

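In 6 genes called in low R:FR the difference between dvl1-1D and Col-0 was not the same in the 2 lights, by the interaction of genotype and light (limma, the fold change in low R:FR minus that in WL, log2). They are the 6 called genes with the smallest interaction p, and the interaction uses the same low R:FR libraries as the call. The interaction was -1.23 for NIA1 (adjusted p = 0.000389), 0.75 for BGLU18 (adjusted p = 0.000746) and -1.33 for LHY (adjusted p = 0.00116). It was 1.97 for LSU3 (adjusted p = 0.00147), -1.12 for LEA3 (adjusted p = 0.00171) and -1.03 for AGT3 (adjusted p = 0.00239). In LSU3 and LHY the estimates had opposite signs in the 2 lights, 1.32 and -0.65 in LSU3 and -1.004 and 0.32 in LHY, in low R:FR and WL respectively. NIA1 and AGT3 had estimates near 0 in WL (-0.05 and -0.03), and BGLU18 (0.29) and LEA3 (-0.37) had the same sign in both lights.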

How the results depend on the processing

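The genes that passed were 1167 higher and 790 lower. They were 273 and 323 with the 6 libraries alone and 759 and 485 with the 4 Col-0 and dvl1-1D groups alone, an alternative chosen after seeing the data. Leaving out 1 library gave 556 to 1587 higher and 389 to 767 lower. The called genes were 59 higher and 70 lower. Called higher were 32 with a pseudocount of 1, 110 with no filter, 25 with a mean of at least 5 FPKM and 35 with the 6 libraries alone, and called lower were 43 and 25 with the pseudocount of 1 and the mean of at least 5 FPKM. Without 1 library, 44 to 107 were called higher and 56 to 79 lower. The interaction, 232 higher and 267 lower, gave 57 and 75 with the 4 groups alone and 61 to 639 higher and 77 to 454 lower without 1 library, fewest higher when low R:FR replicate 2 of Col-0 was left out and most when its replicate 3 was. Quantile scaling gave 1125 higher and 1015 lower.

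Same-numbered Col-0 and dvl1-1D libraries had correlated deviations of 0.08, 0.16 and 0.03 in low R:FR and 0.02, 0.11 and 0.07 in WL. Deviations from a mean of 3 libraries are tied to each other. These values therefore cannot settle whether same-numbered samples belong together. A replicate block gave 992 higher and 726 lower, with 123 called. The correlation of replicate 1 of Col-0 was highest with replicate 3 of dvl1-1D (0.12), not with its own number.

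Of 220 genes in the naming rule, 101 passed and 64 of them passed in every setting that tested them. Genes with a lower mean, such as GEX3, HSFA2 and MAF5, were not tested in the setting with a mean of at least 5 FPKM. None of the 220 reversed in sign while called. The cause of these shifts was not tested. The read number is unknown, so what depth limits could not be measured.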

Other observations

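CER1, ESM1 and JAL5 were called higher in dvl1-1D in low R:FR and were picked out after their values were seen. CER1, a gene of wax alkane synthesis, had 8.38, 6.39 and 14.2 FPKM in Col-0 and 20.8, 22.1 and 19.7 in dvl1-1D (log2 fold change 1.18, adjusted p = 0.000474, 0.09 in WL). ESM1, a modifier of glucosinolate breakdown, had 43.5, 41.3 and 49.9 against 99.5, 84.7 and 99.2 FPKM (1.07, adjusted p = 4.32e-06, 0.26 in WL). JAL5, a jacalin-related lectin gene, had 2.76, 2.87 and 4.07 against 6.98, 7.24 and 7.52 FPKM (1.16, adjusted p = 0.000323). The groups did not overlap in these genes. Of all tested genes, 6.05% passed as higher and 4.1% as lower in low R:FR, and 2.84% and 2.13% in WL. Of 18 glucosinolate synthesis genes 1, CYP83B1, passed as higher in low R:FR and 0 as lower. In WL 0 of the 18 passed as higher and 4 as lower. CYP83B1 did not pass in 10 of the alternatives (adjusted p up to 0.206). Of 11 tested flavonoid and anthocyanin genes 2 passed as higher in low R:FR, ANS (1.48) and MYB111 (0.56). With the 6 libraries alone neither passed (adjusted p = 0.11 and 0.0536). MYB111 also did not pass without replicate 2 of Col-0 (adjusted p = 0.0709). None of 17 iron deficiency genes passed in low R:FR, but without replicate 3 of Col-0 FRO2 (1.16, adjusted p = 0.0278) and F6'H1 (0.92, adjusted p = 0.0435) passed as higher, and over the other alternatives adjusted p reached 0.479 for FRO2 (AT1G01580) and 0.431 for F6'H1 (AT3G13610).

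Of 924 tested nuclear genes described as chloroplastic, a grouping made after the values were seen, 164 passed as higher and 36 as lower (17.7% and 3.9%, against 6.05% and 4.1% of all tested genes, median log2 fold change 0.08), with 75 to 185 higher when 1 library was left out, 75 without replicate 2 of Col-0, 107 and 102 without replicates 1 and 3 of dvl1-1D. Of 53 tested genes of the chloroplast genome, 0 passed as higher and 5 as lower (9.43%, against 4.1% of all tested genes), and 45 were below 0 (median -0.22). The difference between these groupings was not tested. RPL14, a chloroplast ribosomal protein gene, had 6.89, 6.33 and 5.01 FPKM in Col-0 and 0.78, 2.25 and 2.17 in dvl1-1D (-1.87, adjusted p = 0.00237). In WL 0 of the 53 passed. The libraries were made from poly(A) RNA, which captures organelle transcripts in part.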
